A study of Mus musculus with 11 samples.

Results

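A set of 4 signalling regulators was followed through diet and fasting in mouse liver: Rgs3, Dusp12, Nrbp1 and Ndrg2. They are the 4 genes whose spots carry these symbols in the platform's table, and they were chosen by the array values themselves, for lower ratios in high-fat than in control livers. The table lists 5 spots for them among 17280, and all 4 genes could be tested among 3558 genes. Each was read from 1 spot. Rgs3 has a further spot, listed under another transcript record, that held no value on any array. Which Rgs3 isoform the filled spot detects is not known here.

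The 11 arrays each carry liver RNA of 1 mouse of strain C57/BL/J6, per the labels, although the label of high-fat mouse 4 gives no strain. The 4 control mice were kept on chow of 6.5% fat for 10 weeks. The 4 high-fat mice were kept as long on a diet of 42.16% fat, and the 3 fasted mice had that diet too but no food in the final 48 h. There was no group that fasted after chow. Age and sex of the mice were not given in the sources used here, and not every mouse of the study has an array here. Liver RNA was labelled with Cy5 and hybridised against a universal mouse reference RNA in Cy3, so each value is a log2 ratio of liver over reference. A value of 0 after centring is the median spot of that array. A ratio depends on that gene's level in the reference, so the ratio of 1 gene says nothing of its level against another gene's.

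Values were present for 3864 to 5567 spots of an array. High-fat array 4 correlated with the other arrays at a Pearson r between -0.03 and 0.01, against 0.69 to 0.94 among the other 10, and was left out, as the rule for choosing the genes states. The spread of the ratios (scaled median absolute deviation) was 0.39 to 0.58 on the 3 high-fat arrays, below the 0.64 to 0.77 of the control and the 0.65 to 0.73 of the fasted arrays. Results are therefore given for centred arrays and for arrays also scaled to one spread. Of 25 hepatocyte markers 13 could be tested, and 11 had a value on all 10 arrays. On centred arrays the mean of these 11 was 1.73 to 2.88 in control, 1.25 to 1.58 in high-fat and 1.35 to 1.49 in fasted livers. On scaled arrays it was 1.62 to 2.34, 1.43 to 2.57 and 1.28 to 1.30, so high-fat and control livers overlapped there. In bulk liver, fewer cells of a type and less RNA per cell cannot be told apart.

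The 4 genes act at different points of signalling. Rgs3 is a regulator of G protein signalling: such proteins speed the hydrolysis of GTP by G protein alpha subunits and so shorten the signal of a receptor. Dusp12 is an atypical dual-specificity phosphatase with a zinc-binding domain, of a superfamily whose members remove phosphate from tyrosine and from serine or threonine, and it is known to bind glucokinase. Nrbp1 is a pseudokinase, a protein with a kinase fold that lacks residues needed for catalysis, and works as an adaptor in ubiquitin ligase complexes. Ndrg2 belongs to the N-myc downstream regulated genes, which MYC represses, and has a hydrolase-like fold without a known enzymatic activity.

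The promoters of the 4 genes are shown to set their sequences side by side, since the genes were chosen for a shared direction. Each is the 250 bases before a start site, from RefSeq on build GRCm38.p6, on the strand of the gene. Capitals mark matches to the 6 motifs searched on both strands. The entries are at chr4:62559597-62559846 (plus strand) for Rgs3, chr1:170885541-170885790 (minus strand) for Dusp12, chr5:31240633-31240882 (plus strand) for Nrbp1 and chr14:51914005-51914254 (minus strand) for Ndrg2.
Rgs3: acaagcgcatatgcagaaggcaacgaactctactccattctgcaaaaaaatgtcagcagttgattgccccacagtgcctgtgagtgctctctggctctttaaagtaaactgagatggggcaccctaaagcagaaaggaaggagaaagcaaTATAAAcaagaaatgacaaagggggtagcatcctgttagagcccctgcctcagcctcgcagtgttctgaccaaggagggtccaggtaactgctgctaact
Dusp12: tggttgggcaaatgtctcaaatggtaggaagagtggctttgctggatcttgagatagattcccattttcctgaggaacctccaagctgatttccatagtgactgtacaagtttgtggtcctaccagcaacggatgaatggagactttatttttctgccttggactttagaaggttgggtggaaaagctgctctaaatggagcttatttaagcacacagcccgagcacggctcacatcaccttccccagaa
Nrbp1: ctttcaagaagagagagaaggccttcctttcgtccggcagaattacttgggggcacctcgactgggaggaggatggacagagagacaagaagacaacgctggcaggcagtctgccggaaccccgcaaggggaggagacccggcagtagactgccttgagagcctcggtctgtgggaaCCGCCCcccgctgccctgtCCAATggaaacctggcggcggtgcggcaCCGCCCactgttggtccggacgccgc
Ndrg2: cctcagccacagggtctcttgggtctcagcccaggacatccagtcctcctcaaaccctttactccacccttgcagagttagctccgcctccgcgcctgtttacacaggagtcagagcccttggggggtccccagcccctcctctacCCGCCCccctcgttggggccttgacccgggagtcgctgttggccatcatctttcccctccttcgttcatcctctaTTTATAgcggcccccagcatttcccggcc
All 4 genes matched the RefSeq table. Rgs3 has 2 entries there and Ndrg2 has 3, of which the first is shown, and which start site the livers used is not known.

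The 4 windows differed in base composition and in motifs. The Dusp12 window had 46% G and C and held none of the 6 motifs. The Rgs3 window had 48.4% and held 1 match to TATAAA, which lay 100 bases before the start and is present in 12.4% of 32851 promoters of this length. The Nrbp1 window had 63.6% and held 2 matches to GGGCGG, the GC box bound by Sp factors, with a match to CCAAT between them. These letters occur in 32.7% and 33.8% of promoters. The Ndrg2 window had 62% and held 1 GC box and, 29 bases before the start, a match to TATAAA that reads as its reverse complement on the gene's strand. The other motifs were CACGTG (6.02% of promoters), TGACG (17.8%) and AGGTCA (14%), and none of these was present in the 4 windows shown. CACGTG is the E-box bound by MYC and by the carbohydrate response factor, TGACG is part of the cyclic AMP response element, and AGGTCA is a core recognition motif of nuclear receptors. No motif was shared by all 4 windows. Of the entries not shown, Rgs3 entry 2 held 1 GC box and 1 TATAAA, Ndrg2 entry 2 held 1 AGGTCA and Ndrg2 entry 3 held 4 GC boxes. A match describes letters in a window, and no factor's binding was measured.

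**Figure D1:**
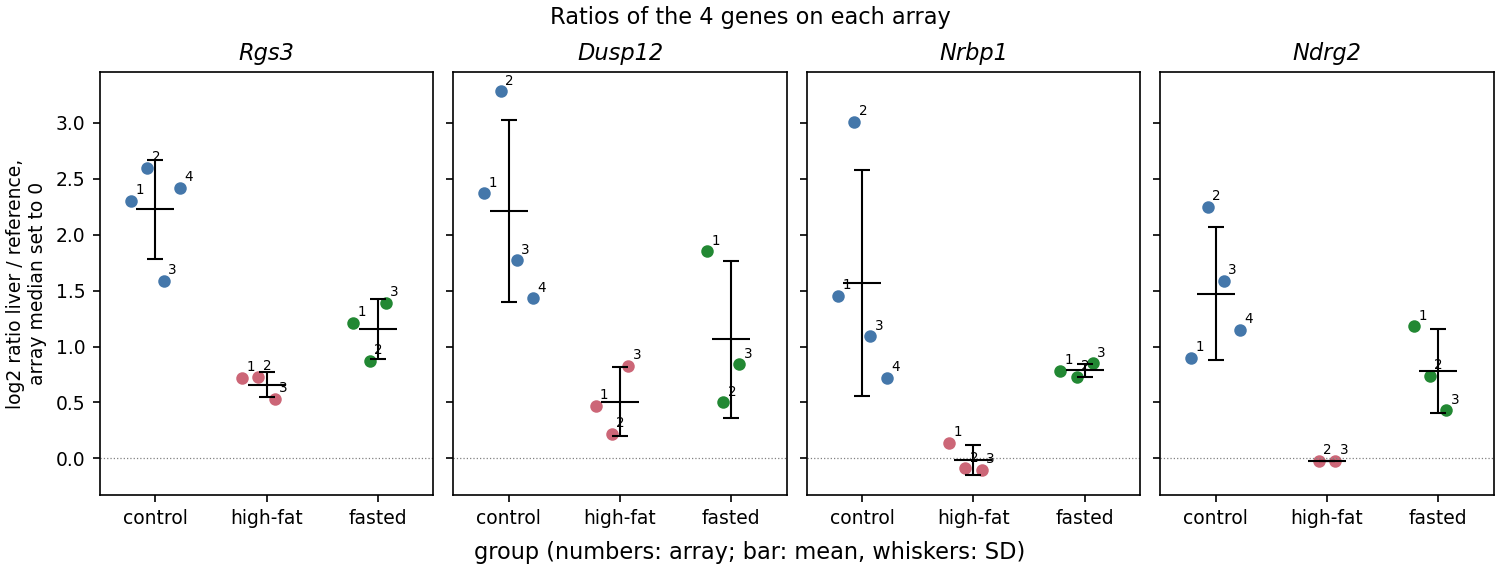
Centred log2 ratio of liver over reference RNA (vertical axis) for Rgs3, Dusp12, Nrbp1 and Ndrg2 in control, high-fat and fasted livers. Each point is 1 array of 1 mouse and each bar is a group mean with its SD. All high-fat points lie below all control points, and the fasted means lie between the other means. Ndrg2 has 2 high-fat points.

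The first comparison asks how the 4 genes stood after the high-fat diet, and is a description, because it chose them. The Rgs3 ratio was 2.30, 2.60, 1.59 and 2.42 in the control livers and 0.72, 0.73 and 0.53 in the high-fat livers. On these centred arrays all 3 high-fat livers lay close together and below every control liver. On scaled arrays they were further apart, at 1.17, 0.83 and 0.57, and still below every control liver. The centred mean was 2.23 ± 0.44 (SD, n = 4) in control and 0.66 ± 0.11 (n = 3) in high-fat livers. The difference was -1.57 ± 0.22 (SE) on the log2 scale, or 2.96-fold.

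Dusp12 was the most spread of the 4 in high-fat livers. Its ratio was 2.37, 3.28, 1.77 and 1.43 in control livers against 0.47, 0.22 and 0.83 in high-fat livers. The groups did not overlap, and the gap between the lowest control and the highest high-fat liver was small beside the range among controls. The means were 2.21 ± 0.81 and 0.51 ± 0.31, a difference of -1.71 ± 0.40 (SE), or 3.26-fold.

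Nrbp1 was 1.45, 3.01, 1.09 and 0.72 in control livers and 0.14, -0.09 and -0.10 in high-fat livers. The high-fat livers were thus near the median spot of their arrays, and control array 2 stood well above the other controls. The means were 1.57 ± 1.01 and -0.02 ± 0.14, a difference of -1.58 ± 0.40 (SE). Without control array 2 the difference was -1.10.

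Ndrg2 was 0.90, 2.25, 1.59 and 1.15 in control livers and -0.02 on both high-fat arrays that hold a value, since high-fat array 1 is empty for it. The means were 1.47 ± 0.59 (n = 4) and -0.02 (n = 2), a difference of -1.49 ± 0.33 (SE), or 2.81-fold. High-fat array 4, which was not used, held Ndrg2 at 0.03 as deposited and at -0.26 after centring. Since that array did not correlate with the others, its value is not set beside theirs.

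On centred arrays control array 2 was the highest for all 4 genes, and it was also the control array with the highest mean of the hepatocyte markers (2.88, against 1.73 to 1.92 on the other 3). The part of that array's level in the differences was not tested beyond leaving it out. Of all genes tested, 8.77% were lower in high-fat livers with no overlap between the groups and 1.97% were called lower at an adjusted p under 0.05 (limma, Benjamini-Hochberg), and the 4 genes rank 4th to 10th from the largest fall among 3558. On arrays scaled to one spread the differences were -1.17 for Rgs3, -1.34 for Dusp12, -1.37 for Nrbp1 and -1.32 for Ndrg2, and the groups still did not overlap for any of the 4, as for 5.2% of all genes. Of the 13 hepatocyte markers tested, 12 were lower in high-fat livers on centred arrays, with a median of -0.60 and 3 that fell. On scaled arrays 6 were lower, with a median of 0.13, and 2 fell, Cyp3a11 (-1.32) and Cyp2c29 (-1.32). Over all genes the change depended on the level: its slope on the mean ratio was -0.24 on centred and 0.11 on scaled arrays.

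The place of each gene's ratio within its own array is independent of centring and scaling. It depends on the reference too, which all arrays share, so a gene's place is set only against its own place on other arrays. It is a description, with no test, and was looked at after the values had been seen. Among the 2261 other genes with a value on all 10 arrays, Rgs3 was above 96.5% to 99.3% of them in control livers and above 77.0% to 90.5% in high-fat livers. Nrbp1 was above 80.7% to 99.1% of genes in control livers and above 29.3% to 54.05% in high-fat livers. Ndrg2 was above 88.1% to 97.5% of genes in control and 34.4% to 35.9% in high-fat livers. Dusp12 ranged from 55.1% to 89.96% in high-fat livers, which stayed under its 95.05% to 99.5% in control livers. In fasted livers the ranges were 88.15% to 94.96% for Rgs3, 72.6% to 98.9% for Dusp12, 83.4% to 85.8% for Nrbp1 and 67.5% to 94.2% for Ndrg2. The fasted places of Dusp12, Nrbp1 and Ndrg2 overlapped their control places, and those of Rgs3 did not. Against the high-fat places, the fasted places of Rgs3 and Dusp12 overlapped, and those of Nrbp1 and Ndrg2 did not.

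**Figure D2:**
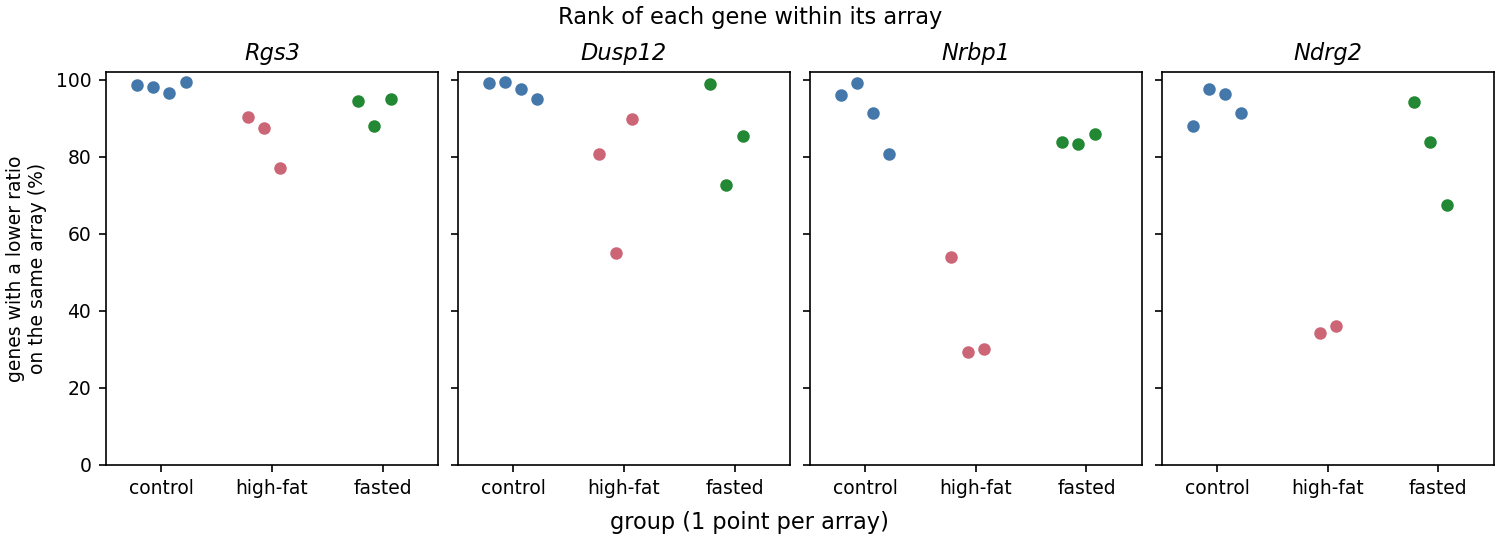
Percent of the other genes filled on all 10 arrays that have a lower ratio than the gene on the same array (vertical axis), for each of the 4 genes in control, high-fat and fasted livers. Each point is 1 array. Nrbp1 and Ndrg2 lie above 80.7% of genes on every control array and above at most 54.05% on every high-fat array, and Rgs3 stays above 77.0% of genes on all arrays.

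The second comparison asks where the genes stood when mice on the high-fat diet had fasted. The Rgs3 ratio was 1.21, 0.87 and 1.39 in fasted livers, with a mean of 1.16 ± 0.26 (SD, n = 3), and all 3 values lay above the high-fat and below the control livers. Dusp12 was 1.85, 0.50 and 0.84 in fasted livers, a spread that overlapped both other groups, with a mean of 1.06 ± 0.70. Nrbp1 was 0.78, 0.73 and 0.85, the tightest of the 4, with a mean of 0.79 ± 0.06, above every high-fat liver and level with the lowest control liver. Ndrg2 was 1.18, 0.74 and 0.43, with a mean of 0.78 ± 0.38, above both high-fat values and overlapping the controls. No single fasted array was highest for all 4: array 1 was for Dusp12 and Ndrg2, and array 3 for Rgs3 and Nrbp1.

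All 4 fasted means lay between the high-fat and the control mean. As a share of the way from high-fat to control, the fasted mean lay at 31.7% for Rgs3, 32.6% for Dusp12, 50.7% for Nrbp1 and 53.8% for Ndrg2. On scaled arrays these shares were 15.6%, 23.8%, 51.6% and 55.8%, so the lower pair of shares depended on the scaling more than the upper pair. Since the genes were chosen for low high-fat and high control values, a mean between them can follow from that choice.

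Against the high-fat livers, none of the 4 genes passed the test across all genes in the fasted livers, where 0.365% of genes were called in either direction. The differences of fasted minus high-fat share the high-fat arrays with the choice, which pushes them up. They were 0.50 ± 0.23 (SE) for Rgs3, 0.56 ± 0.43 for Dusp12, 0.80 ± 0.43 for Nrbp1 and 0.80 ± 0.34 for Ndrg2 on the log2 scale. The 95% intervals ran from -0.01 to 1.00, from -0.39 to 1.5, from -0.13 to 1.74 and from 0.05 to 1.56. The adjusted p-values (limma) were 0.344, 0.558, 0.392 and 0.32, and 1 of the 4, Ndrg2, was under 0.05 before adjustment, as were 14.6% of all genes. Rgs3, Nrbp1 and Ndrg2, 3 of 4, were higher with no overlap, which held for 11.1% of all genes. On scaled arrays the Rgs3 difference was 0.18 with overlapping groups, and Nrbp1 (0.71) and Ndrg2 (0.74) remained without overlap, against 6.46% of genes. Here too the change over all genes depended on the level. Its slope on the mean ratio was 0.25 on centred and -0.09 on scaled arrays. Without fasted array 1 the Dusp12 difference was 0.16, and without fasted array 2 it was 0.84. In a fit of only the high-fat and fasted arrays the Nrbp1 difference of 0.80 was called (adjusted p = 0.0245, limma). That fit called 49 of 3753 genes, of which 32 fell and 17 rose. Over the other settings tried the adjusted p of Nrbp1 ran from 0.0538 to 0.596.

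Against the control livers, Rgs3 was the 1 gene of the 4 that fell, in a test that called 3.2% of all genes and 1.04% as lower. This difference shares the control arrays with the choice, which pushes it down. Fasted minus control was -1.07 ± 0.22 (SE, 95% interval -1.54 to -0.60) for Rgs3, or 2.10-fold, with an adjusted p of 0.0274 (limma) and no overlap between the groups, which 9.58% of genes showed in that direction. The call was lost on arrays scaled to one spread, where the difference was -0.98 (adjusted p = 0.0812, limma), and with quantile normalisation, where it was -0.81 (adjusted p = 0.125). It was also lost without control array 1 (0.0578), without fasted array 1 (0.0841) and without fasted array 2 (0.116), with the difference at -1.05, -1.10 and -0.93. It was lost too with all 11 arrays (0.0536), with only the control and fasted arrays in the fit (0.0669) and with the replicate number as a block (0.0623). It held under 13 of 21 settings, and adjusted p ran from 0.00769 to 0.125. Over all genes the calls in this comparison were 114 in the main fit, 10 on scaled arrays and 80 with quantile normalisation. They were 54 without control array 1, 7 without fasted array 1 and 5 without fasted array 2. With all 11 arrays they were 25, with only the control and fasted arrays 47 and with the replicate block 106.

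The other 3 genes were lower in fasted than in control livers by values that did not pass the test. Dusp12 differed by -1.15 ± 0.40 (95% interval -2.03 to -0.27, adjusted p = 0.137, limma), Nrbp1 by -0.78 ± 0.40 (-1.65 to 0.09, 0.295) and Ndrg2 by -0.69 ± 0.29 (-1.32 to -0.06, 0.208). For each of the 3 the fasted and control arrays overlapped. Control array 2 weighed on these values: without it they were -0.79, -0.30 and -0.43. Ttr, Cyp3a11 and Cyp2c29, 3 of the 13 hepatocyte markers, also fell, and 12 of 13 were lower, with a median of -0.61 on centred and -0.47 on scaled arrays. On scaled arrays Cyp3a11 kept its call (adjusted p = 0.0428, limma), and Ttr (0.239) and Cyp2c29 (0.0812) lost theirs.

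The last comparison sets the fasted livers against all fed arrays, with control and high-fat means weighted 4 to 3. For a gene with a value on every array this difference is uncorrelated with the one that chose the genes only if control and high-fat arrays vary alike. The control SD was the larger for all 4 genes (0.44 against 0.11 for Rgs3, for example), and with such spreads the choice pushes this difference down too. None of the 4 genes was called, beside 0.225% of all genes, and none was under 0.05 before adjustment, where 15.7% of all genes were. The difference was -0.40 ± 0.20 (SE, 95% interval -0.83 to 0.03, adjusted p = 0.349, limma) for Rgs3 and -0.42 ± 0.37 (-1.22 to 0.38, 0.603) for Dusp12. Without fasted array 1 the Dusp12 value was -0.81, and without fasted array 2 it was -0.14. The difference from the fed arrays was -0.10 ± 0.36 (-0.89 to 0.69, 0.915) for Nrbp1 and -0.05 ± 0.27 (-0.64 to 0.54, 0.941) for Ndrg2. On scaled arrays Rgs3 differed by -0.48, with an adjusted p of 0.435 (limma) and an unadjusted one under 0.05. The intervals for Nrbp1 and Ndrg2 take in both a rise and a fall of more than 0.5.

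**Figure D3:**
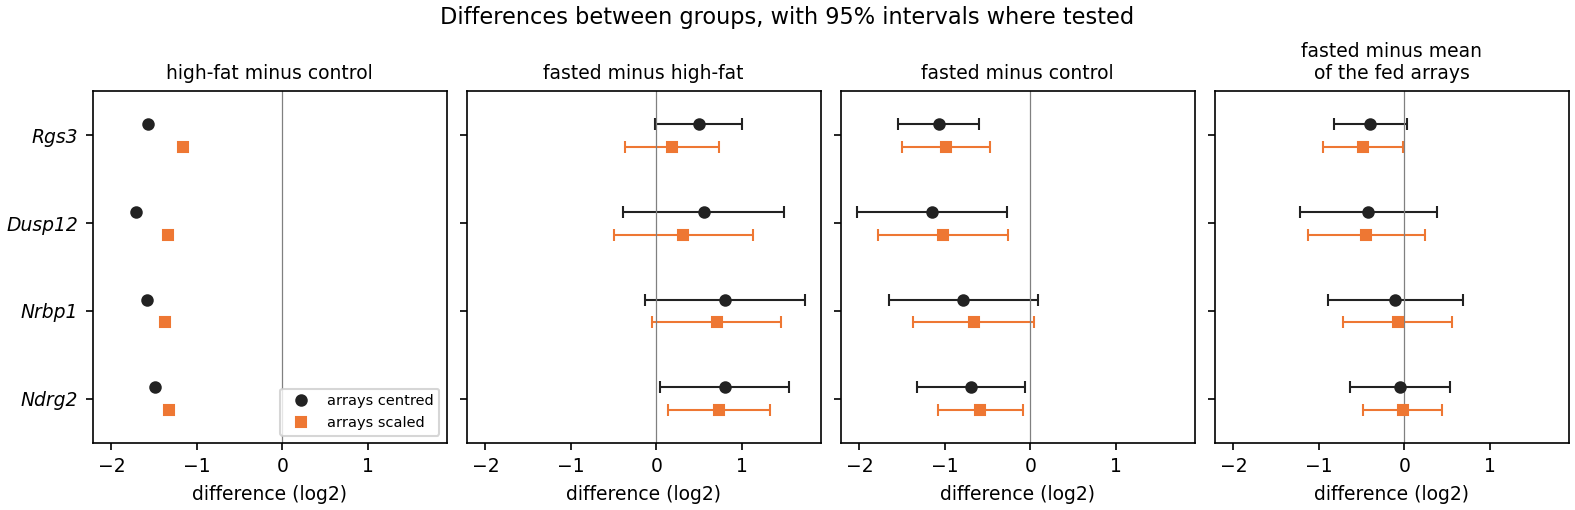
Log2 differences (horizontal axis) of the 4 genes for the comparisons between groups, on centred arrays (circles) and on arrays scaled to one spread (squares), with bars for 95% intervals. The high-fat minus control values chose the genes and carry no interval. The intervals of fasted minus the mean of the fed arrays take in 0 for all 4 genes on centred arrays.

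Set side by side, the members' median was -1.58 for high-fat minus control, 0.68 for fasted minus high-fat, -0.93 for fasted minus control and -0.25 for fasted minus fed, where the medians over all genes were 0.08, -0.05, 0.02 and -0.02. All 4 medians carry the choice of the genes.

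The 4 genes also moved together from array to array. Over the 10 arrays Pearson's r was 0.83 between Rgs3 and Dusp12, 0.81 between Rgs3 and Nrbp1, and 0.90 between Dusp12 and Nrbp1. Over the 9 arrays with Ndrg2 it was 0.76 with Rgs3, 0.85 with Dusp12 and 0.87 with Nrbp1. On scaled arrays these values lay between 0.68 and 0.86. The arrays share the reference RNA, the group differences that chose the genes, and the high control array 2, so the values are a description.

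The genes most like each of the 4, by Pearson's r over the same arrays, were found among 2016 candidates, or 2053 for Ndrg2. For Rgs3 they were Srrt, an RNA-processing factor (r = 0.961), Tnfrsf23, a decoy receptor of the TNF receptor family (0.943), and the phosphatase gene Ptp4a2 (0.929). Scaling lowered Srrt to 0.502 and Ptp4a2 to 0.570, while Tnfrsf23 stayed at 0.915, with group means of 0.99 in control, 0.09 in high-fat and 0.40 in fasted livers. For Dusp12 they were Tmem37 (0.954), the phosphatase gene Ctdsp1 (0.945) and the actin-capping protein gene Capg (0.935). For Nrbp1 they were the protocadherin gene Pcdhb7 (0.932), the lysosomal nuclease gene Dnase2a (0.930) and Capg (0.929). Capg was thus among the nearest of both on centred arrays, and scaling lowered its r to 0.744 with Dusp12 and 0.668 with Nrbp1. The scaled r was 0.901 for Tmem37 and 0.880 for Ctdsp1 with Dusp12, and 0.892 for Pcdhb7 and 0.802 for Dnase2a with Nrbp1. For Ndrg2 they were Aldh1a1, which makes retinoic acid from retinal (0.967), Pctp, the phosphatidylcholine transfer protein (0.965), and the ribosomal protein gene Rpl13 (0.949). Aldh1a1 had means of 2.16, 0.62 and 1.21 in control, high-fat and fasted livers, and its r was 0.947 on scaled arrays.

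The relatives and pathway partners of the 4 genes were lists of 220 other genes, of which 178 have a spot and 46 could be tested. None of the 46 was called in any of the comparisons, on centred or scaled arrays. In high-fat minus control 21 were lower and 25 higher, with changes from -0.43 to 0.79, and the lowest adjusted p was 0.081 (limma). Before adjustment 5 of the 46 were higher and 0 lower at a p under 0.05, where 16.6% and 8.63% of all genes were. For fasted minus high-fat 5 were lower and 0 higher (9.81% and 4.81% of all genes), and for fasted minus control 0 were lower and 2 higher (9.16% and 11.2%). For fasted minus fed 1 was lower and 1 higher (7.84% and 7.87%).

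**Figure D4:**
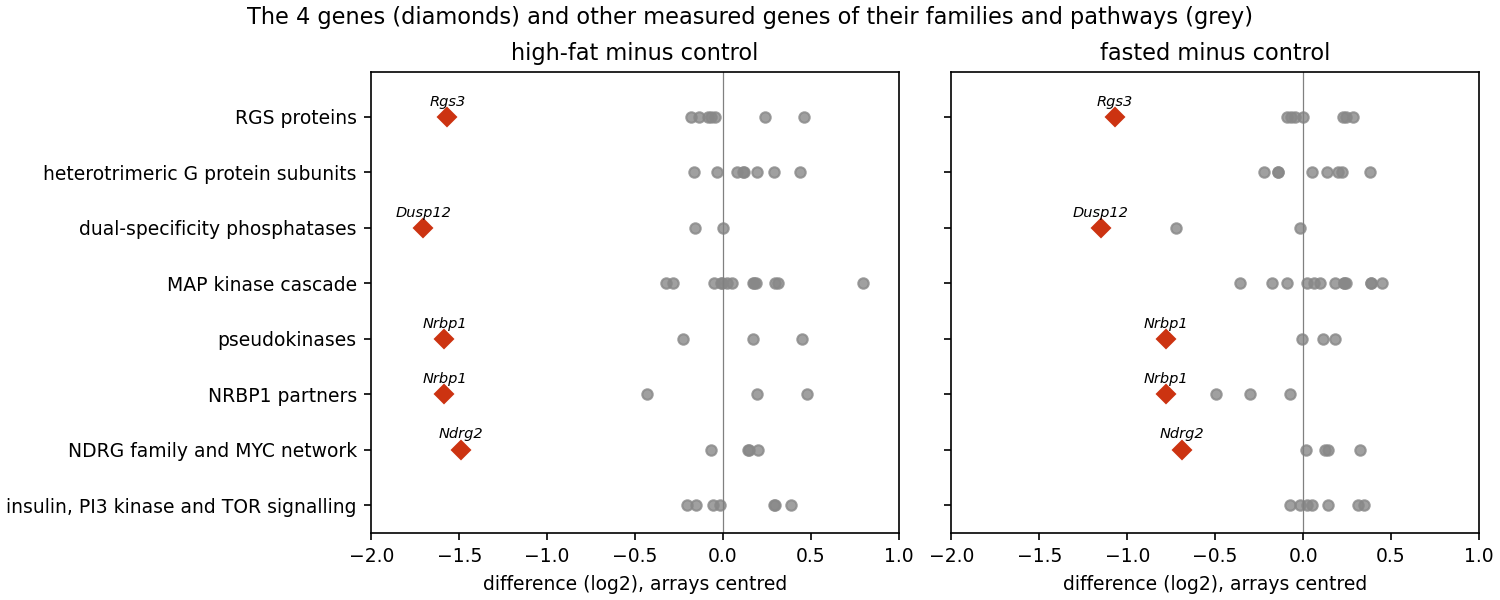
Log2 difference (horizontal axis) of high-fat minus control (left) and fasted minus control (right) for each tested gene of the families and pathways of Rgs3, Dusp12, Nrbp1 and Ndrg2, 1 row per list. At left the 4 chosen genes (diamonds) lie between -1.71 and -1.49 by choice and the other 46 (grey points) between -0.43 and 0.79. At right the other genes lie between -0.72 and 0.45.

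Among other regulators of G protein signalling, 7 of 23 listed could be tested and had a median of -0.07 in high-fat minus control livers. Rgs5, Rgs7, Rgs9 and Rgs12 differed by -0.07, -0.05, -0.18 and -0.14, and Rgs10 and Rgs18 by 0.24 and 0.46 (adjusted p = 0.121 for Rgs18, limma). Rgs5, Rgs7, Rgs10 and Rgs18 had a value on only 2 high-fat arrays, and Rgs5 also on only 2 control arrays. On scaled arrays the sign turned for Rgs5 (0.43), Rgs7 (0.20) and Rgs10 (-0.10). Of the 8 G protein subunits tested, of 32 listed, 6 were higher and 2 lower, with a median of 0.12.

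The dual-specificity phosphatases other than Dusp12 gave 2 tested genes of 33 listed. Dusp14 differed by -0.00 in high-fat and -0.02 in fasted against control livers (2 control arrays with a value), and by 0.02 in both on scaled arrays. The other was Epm2a, the glycogen phosphatase laforin, named after its values were seen, at -0.16 in high-fat minus control and -0.72 ± 0.42 (SE, adjusted p = 0.357, limma) in fasted minus control. The MAP kinase cascade, on which many dual-specificity phosphatases act, had 13 of 45 genes tested. Of these 8 were higher and 5 lower in high-fat livers (median 0.05), and 10 higher and 3 lower in fasted against control livers (median 0.18).

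For Nrbp1, 3 of 21 other pseudokinases and 3 of 17 partner genes were tested. The partners were Cul4a, a scaffold of ubiquitin ligases, the elongin subunit gene Elob and the small GTPase gene Rac3. In high-fat minus control they differed by 0.48, -0.43 (2 high-fat arrays with a value) and 0.19. On scaled arrays these were 0.13, -0.19 and -0.09, so the sign of Rac3 turned. Cul4a then differed by -0.97 between fasted (2 arrays with a value) and high-fat livers (adjusted p = 0.145, limma), and by -0.53 on scaled arrays (0.547).

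For Ndrg2, 4 of 16 genes of its family and of the MYC network were tested, and Ndrg1 was the 1 family member among them. Ndrg1 differed by 0.15 in high-fat minus control, -0.03 in fasted minus high-fat and 0.12 in fasted minus control livers. The Ndrg2 values were larger in size, but Ndrg2 was chosen for its fall and Ndrg1 was not. The difference between the genes was not tested. Of 35 other genes of insulin, PI3 kinase and TOR signalling, 7 were tested, with a median of -0.02 in high-fat minus control.

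Markers of other cell types, with those of adipose, pancreas and muscle among them, gave 15 tested genes of 83 listed. In high-fat minus control 7 were lower and 8 higher, and none was called, with 0 lower and 6 higher at a p under 0.05 before adjustment, where 8.63% and 16.6% of all genes were. In fasted minus control livers 1 was called: Kdr, the endothelial receptor for VEGF, rose by 0.90 ± 0.15 (SE, adjusted p = 0.0181, limma). Its ratio was 0.21 ± 0.24 (SD, n = 4) in control, 0.61 ± 0.14 (n = 3) in high-fat and 1.11 ± 0.13 (n = 3) in fasted livers, the reverse of the order seen for the 4 genes between control and high-fat livers. On scaled arrays the difference was 0.82 (adjusted p = 0.0507, limma). Tie1, the other endothelial marker tested, was named after its values were seen. It differed by -0.22 in high-fat minus control (2 high-fat arrays with a value) and -0.09 in fasted minus control. The red cell markers had no value on any of the arrays, and the part of other cell types in the values of the 4 genes was not tested.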

How the data were processed

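Liver RNA of 11 mice was measured on 2-colour arrays, and the values used are the log2 ratios (liver over reference) that the authors deposited. The labels' protocols describe the labelling with Cy5 and Cy3. Neither the logarithm's base (taken as 2), nor how an array was normalised, nor why cells were left empty is given in the sources used here. The arrays were not centred as deposited (medians 0.07 to 0.47), and their number limits the precision. The files name no genome build, so spots were placed in genes by symbol only: 14718 spots carry 1 symbol and 2562 none or several.

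The 4 genes, the lists and the settings were chosen with earlier results of these data known. Each array was centred on its median, spots of a symbol were averaged, and genes with at least 2 values in every group were kept (3558, of which 3169 have a symbol). A linear model with 1 mean per group was fitted over 10 arrays with limma 3.58.1 in R 4.3.3. The two-sided p-values took the Benjamini-Hochberg adjustment over all genes, and a gene was called under 0.05. Residual and prior degrees of freedom were 7 and 4.96. Alternatives were other scalings, filters and sets of arrays, a replicate block and array weights. Text names the 4 genes, tested members of their families, called genes of the lists, the 3 most alike genes and called markers of other cell types. Cul4a, Elob, Rac3, Epm2a and Tie1 were named after their values were seen. P-values cover the spread between mice of 1 study only.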

Additional observations from a re-analysis of the deposited data

How the results depend on the processing

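All 4 genes stayed lower in high-fat than in control livers under each setting in which they had a value, 21 for Rgs3, Dusp12 and Nrbp1 and 18 for Ndrg2, which has no test with genes filled on all 10 arrays or without high-fat array 2 or 3. The size for Rgs3 fell to -1.07 with quantile normalisation. The signs of fasted minus high-fat (positive) and of fasted minus control (negative) were also kept under all settings run. The choice of the genes pushes all of these signs the same way, and each setting reuses arrays that made the choice. That the signs were kept is thus a description only. Of the 4 genes, 1 was called in fasted minus control, and 0 with arrays scaled to one spread, quantile normalisation, all 11 arrays or only the arrays of the groups compared, and 0 to 1 when 1 array was left out. In fasted minus high-fat 0 were called, and 1 with only the arrays compared, a fit that called 49 of 3753 genes. In fasted minus the mean of the fed arrays 0 were called in every setting run, which leaves out the fit of only the groups compared. There the sign turned for Nrbp1 with quantile normalisation (0.01) and with values as deposited (0.09), and for Ndrg2 with quantile normalisation (0.11), values as deposited (0.12) and array weights (0.14). Leaving out 1 array gave -0.26 to 0.17 for Nrbp1, positive without control array 2, and -0.25 to 0.13 for Ndrg2, positive without control array 2 (0.10) or fasted array 3. The causes were not tested.

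Mice with the same replicate number were no more alike than others. Deviations from group means correlated between -0.18 and 0.18 over 9 pairs with the same number and between -0.23 and 0.25 over 24 with different numbers. So few pairs cannot show whether mice of the same number were handled together. With the number as a replicate block, 0 of the 4 genes were called in fasted minus control (Rgs3 -1.01, adjusted p = 0.0623, limma), and control array 4, alone in its number, adds nothing. Calls over all genes were 175 in high-fat minus control (22 to 206 over the settings), 13 in fasted minus high-fat (3 to 130), 114 in fasted minus control (5 to 238) and 8 in fasted minus fed (1 to 172). Such counts thus varied widely with the settings. In high-fat minus control 70 fell and 105 rose, against 24 and 101 on scaled arrays and 51 and 35 as deposited. In fasted minus control 37 fell and 77 rose, against 18 and 180 as deposited.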
